A study of Rattus norvegicus with 12 samples.

Results

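The response of ND7/23 cells to 100 ng/ml of Wnt3a given for 6 h was measured by RNA sequencing in 3 libraries and set against 3 libraries of untreated control cells. ND7/23 is a hybrid line made by fusing rat dorsal root ganglion neurons with mouse neuroblastoma cells, and the study used it as a model of sensory neurons. The 6 libraries belong to a series of 12 from this line, in which 3 more libraries had 100 μM menthol, an agonist of the cold channel TRPM8, and 3 had menthol and Wnt3a together, each also for 6 h. All groups come from this 1 line, no label says that the libraries of a group were separate cultures, and p-values measure the spread between these libraries only. Of 21556 genes in the table, the 11451 with a mean of at least 0.5 FPKM (fragments scaled to gene length and to library size) over the 12 libraries were tested. The study sequenced these cells to ask how TRPM8 acts on Wnt/β-catenin signaling, and the comparison here asks which genes differ after 6 h and by how much.

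Wnt proteins bind Frizzled receptors together with the co-receptors LRP5 and LRP6, which stops the destruction complex of Axin, APC, GSK-3 and casein kinase from marking β-catenin for degradation. β-catenin then enters the nucleus and acts with T-cell factor and lymphoid enhancer factor proteins on target genes. Several of these targets, *Axin2* among them, encode inhibitors of the same pathway and so form negative feedback. In sensory neurons Wnt signaling is known for roles in development and in pain.

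The libraries held 36914010 to 38836269 reads on genes, by the read counts that the FPKM values give back. Libraries of 1 group differed by more than counting error, with a chi-square of 3.48 to 4.25 per degree of freedom between control libraries and of 4.76 to 7.27 between Wnt3a libraries. Defining neuronal genes were at or near 0 in all groups: 20 of 28 neuronal markers had a mean under 0.1 FPKM, *Tubb3*, *Prph* and *Stmn2* among them, whereas *Uchl1*, *Isl1*, *Hand2*, *Map2*, *Nefh* and *Elavl2* were above the minimum. The summed level of the neuronal markers was 139 to 146 FPKM in control and 145 to 150 with Wnt3a. The 20 skeletal muscle markers, 9 of them under 0.1 FPKM, summed to 9.89 to 11.8 FPKM in control and 12.3 to 13.6 with Wnt3a. The 10 fibroblast markers, with *Lum* and *Fap* under 0.1 FPKM, summed to 287 to 295 and 277 to 282, and the 8 endothelial markers, with *Cdh5* and 3 others under 0.1 FPKM, to 4.05 to 4.35 and 3.31 to 4.01. None of these 3 sums overlapped between the groups, and their part in the results was not tested. The sums of glial and of macrophage markers overlapped. Because these are bulk libraries, fewer cells that express a gene and less RNA of it per cell cannot be told apart.

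Wnt3a raised 26 genes and lowered 24 at a limma adjusted p under 0.05 over all tested genes, which is 0.227% and 0.210% of them. These changes were small. The median size over the 50 genes was 0.24 on the log2 scale, or 1.18-fold, 46 of the 50 changed by less than 1.5-fold, and 2 genes, both lowered, passed 2-fold (0.0175% of those tested). At an unadjusted p under 0.05, 936 genes (8.17%) were higher with Wnt3a and 791 (6.91%) lower. The 3 libraries of one group lay entirely above or below the 3 of the other for all 50 genes and for 2315 of the 11451 (20.2%). The counts depended on single libraries. Omitting control replicate 1 left 4 raised and 4 lowered genes, control replicate 2 left 11 and 6, and control replicate 3 left 3 and 3. Omitting Wnt3a replicate 1 left 3 and 4, Wnt3a replicate 2 left 4 and 4, and Wnt3a replicate 3 gave 158 and 133. *Tnfrsf19*, *Klf5*, *Thbs1*, *Akap12* and *Lats2* passed in all 6 of these fits, and 34 of the 50 genes in at most 1. A count model, limma voom on the recovered reads, called 118 raised and 185 lowered, among them 48 of the 50.

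Among the feedback genes of the pathway, *Axin2* (NCBI gene 29134), a scaffold of the destruction complex that is counted here with the feedback list, was at 5.07, 5.07 and 4.72 FPKM in the control libraries and at 6.56, 7.31 and 7.45 FPKM with Wnt3a. All 3 Wnt3a libraries lay above all 3 controls. It rose to 1.42 times its control level, 0.51 on the log2 scale with an SE of 0.072 (limma adjusted p = 0.00875), on 973 to 1514 reads a library. Omitting control replicate 3 moved the adjusted p to 0.0511, and omitting Wnt3a replicate 2 to 0.0563. *Tnfrsf19* (NCBI gene 290300), a receptor of the tumor necrosis factor receptor family known as a Wnt target, was at 7.6, 6.93 and 6.96 FPKM in control and at 11.8, 10.1 and 13.5 FPKM with Wnt3a. It rose by 0.70 on the log2 scale (SE 0.088, limma adjusted p = 0.0062), with the 3 Wnt3a libraries further apart than the controls. These 2 were the only called genes of 11 tested in the list of Wnt feedback inhibitors and receptor turnover, none of which had an unadjusted p under 0.05 on the lower side. The list's median log2 fold change was 0.027, beside 0.004 over all tested genes, since the other 9 members lay between −0.24 (*Wif1*, a secreted inhibitor, limma adjusted p = 0.503) and 0.13 (*Tle1*, a corepressor, limma adjusted p = 0.568). Leaving out 1 library put this median between −0.019 and 0.059. The remaining 24 members in the table fell under the FPKM minimum. Among them *Nkd1* had 0 to 1 reads in control and 0 to 4 with Wnt3a, *Notum* 3 to 9 and 7 to 14, *Lgr5* 0 to 1 and 1 to 6, and *Rnf43* 100 to 111 and 112 to 163. These were outside the main test and entered only the fit with no FPKM minimum, whose values for them are not given here.

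The bases just before the start site of *Axin2* are shown because T-cell factor proteins bind letters close to CTTTGAA or CTTTGAT. These promoters are 250-base windows from RefSeq, build GRCr8, printed 5′ to 3′ on the strand of the gene, with each match in capitals. *Axin2* lies at chr10:94398535-94398784 on the plus strand, and *Klf5*, a raised gene without either match, at chr15:82471831-82472080 on the plus strand.
Axin2: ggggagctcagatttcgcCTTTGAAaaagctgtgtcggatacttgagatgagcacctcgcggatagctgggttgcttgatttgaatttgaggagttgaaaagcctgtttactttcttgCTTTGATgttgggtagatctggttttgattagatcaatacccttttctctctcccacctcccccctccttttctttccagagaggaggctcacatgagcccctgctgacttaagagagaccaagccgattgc
Klf5: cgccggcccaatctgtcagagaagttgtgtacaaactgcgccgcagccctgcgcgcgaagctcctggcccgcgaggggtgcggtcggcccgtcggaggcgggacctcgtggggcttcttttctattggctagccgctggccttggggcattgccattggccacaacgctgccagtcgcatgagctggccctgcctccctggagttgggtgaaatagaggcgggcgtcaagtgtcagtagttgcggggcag
The matches in *Axin2* begin 232 and 132 bases before the start site, CTTTGAA first and CTTTGAT second, both on the strand of the gene. Searched on both strands, CTTTGAA occurred in 4.62% and CTTTGAT in 3.14% of 24206 promoters of this length, and both together in 53 of them (0.219%). Among the 8739 promoters of tested genes these shares were 2.94%, 1.99% and 0.0687%, and 4.86% held at least 1 form. The forms differ in their last base and overlap no other motif searched. Of the 50 called genes, 31 had 1 promoter in the table, and *Axin2* was the 1 of 18 raised and 0 of 13 lowered genes with either form. A match is a description of these letters, and its absence from a window says nothing of the factor.

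Of the called transcription factors, *Klf5*, *Isl1* and *Irx3* rose, whereas *Gli3* and *Stat3*, described further on, fell. *Klf5* (NCBI gene 84410), a zinc finger factor, was at 8.6, 8.42 and 8.86 FPKM in control and at 11.9, 11.9 and 12 FPKM with Wnt3a. The Wnt3a libraries were closely alike and stood above every control, higher by 0.46 on the log2 scale (SE 0.046, limma adjusted p = 0.000613). *Isl1* (NCBI gene 64444), a LIM homeodomain factor of sensory and motor neurons, was at 11.3, 11.4 and 10.8 FPKM in control and at 15.8, 17.6 and 14.1 FPKM with Wnt3a. It rose by 0.50 on the log2 scale (SE 0.073, limma adjusted p = 0.0121). Its adjusted p was 0.0619 without control replicate 1, 0.0623 without control replicate 3, 0.0635 without Wnt3a replicate 1 and 0.0563 without Wnt3a replicate 2. *Isl1* was the 1 called gene of 36 tested in the list of Wnt transcription factors and direct targets, where 4 were higher and 6 lower at an unadjusted p under 0.05 and the median log2 fold change was −0.017. Other well-known targets on that list did not pass. *Ccnd1*, a G1 cyclin, had a log2 fold change of −0.019 (95% interval −0.11 to 0.070), and *Myc* one of −0.19 (interval −0.28 to −0.099, limma adjusted p = 0.0767), with 35.5, 32.7 and 32.1 FPKM in control and 29.5, 29.9 and 28.6 FPKM with Wnt3a. *Irx3*, an Iroquois homeobox factor that was singled out after its values were seen, rose from 21.2, 20.0 and 19.2 FPKM to 23.3, 22.9 and 23.9 FPKM (log2 fold change 0.21, limma adjusted p = 0.0492).

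None of the tested genes on the lists of Wnt ligands and receptors (21) and of the destruction complex with its transducers (33) passed, beside 0.227% raised and 0.210% lowered of all tested genes, shares that give less than 1 call in lists of this size. Of 21 tested Wnt ligands and receptors, 1 was higher and 4 lower at an unadjusted p under 0.05, with a median log2 fold change of −0.071 that was 0.007 without Wnt3a replicate 1. *Fzd1*, a Frizzled receptor, had 2.59, 2.14 and 2.35 FPKM in control and 1.64, 1.87 and 1.7 FPKM with Wnt3a, with no overlap (log2 fold change −0.42, SE 0.120, limma adjusted p = 0.126). The co-receptor *Lrp6* was at −0.12 (limma adjusted p = 0.199), *Ryk*, another Wnt receptor and the most abundant of the list, at 0.043, and *Wls*, needed for Wnt secretion, at 0.038. Of 33 tested members of the destruction complex and its transducers, 2 were higher and 4 lower at that unadjusted level, with a median of −0.037. *Ctnnb1*, which encodes β-catenin, had a log2 fold change of −0.004 with a 95% interval of −0.053 to 0.045, so its RNA level differed by no more than these bounds allow. The KEGG Wnt signaling pathway, as the table annotates it, had 99 tested genes, of which *Axin2* passed, 6 were higher and 15 lower at an unadjusted p under 0.05, and the median was −0.019.

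**Figure D1:**
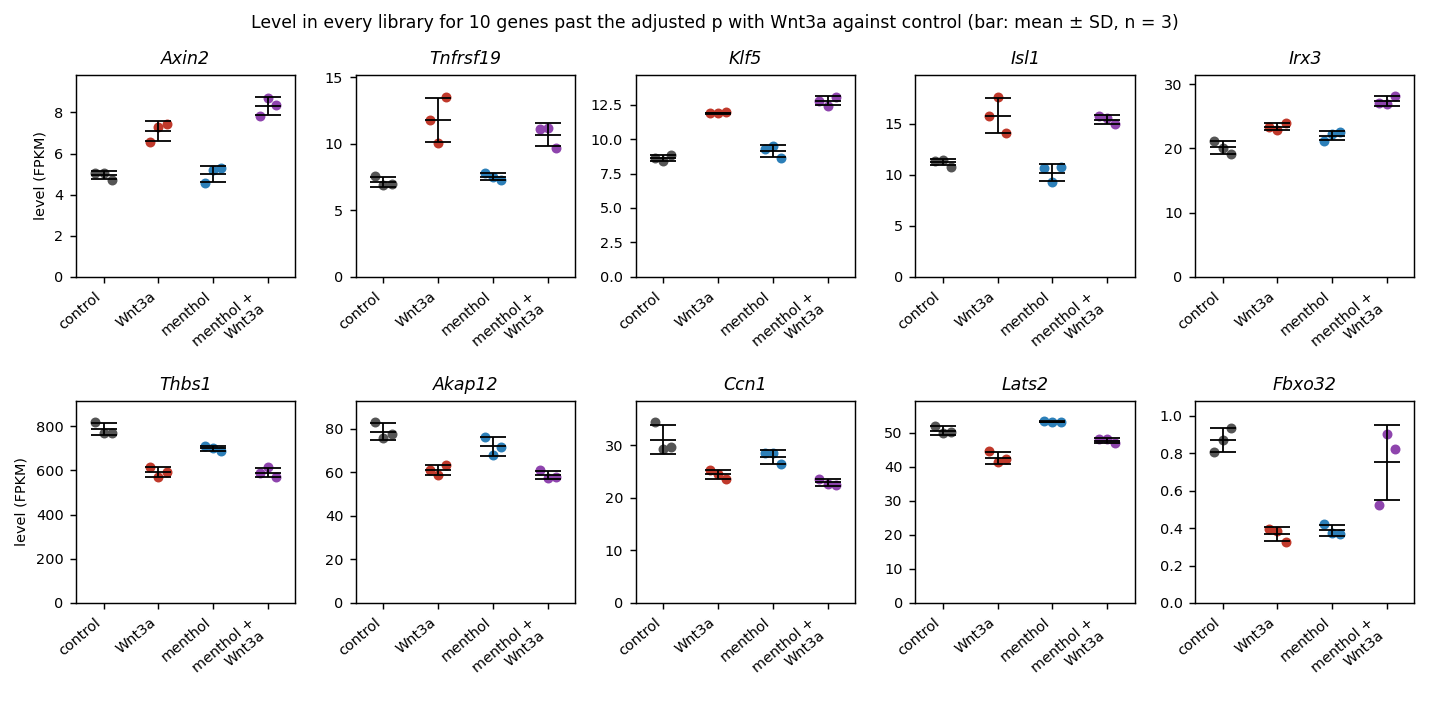
Level in FPKM (y axes, from 0) of 10 called genes in each of the 12 libraries, by group (x axes), with points for libraries and bars for the mean ± SD of 3. In the first 5 panels all 3 Wnt3a libraries lie above the 3 controls, in the last 5 below, and *Fbxo32* is low with Wnt3a and with menthol alone but not with both.

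Several genes of the extracellular matrix were lowered. *Thbs1* (NCBI gene 445442), the matricellular glycoprotein thrombospondin-1, was at 819, 771 and 771 FPKM in control and at 616, 571 and 594 FPKM with Wnt3a. No library of one group reached those of the other, and the level fell by 24.6% (log2 fold change −0.41, SE 0.036, limma adjusted p = 0.000293), with 120481 to 181737 reads in each library. Its adjusted p stayed between 0.000675 and 0.0033 with any 1 library left out. *Ccn1*, a matricellular protein and a known target of YAP, fell from 34.4, 29.3 and 29.7 FPKM to 25.4, 24.5 and 23.6 FPKM (log2 fold change −0.34, SE 0.057, limma adjusted p = 0.0297). *Tnc*, tenascin C, fell from 105, 98.1 and 97.4 FPKM to 82.2, 79.0 and 85.7 FPKM (log2 fold change −0.29, SE 0.055, limma adjusted p = 0.0453). *Adamtsl1*, a secreted ADAMTS-like matrix protein, fell by 0.20 on the log2 scale (limma adjusted p = 0.0453). With 1 library left out, *Ccn1* passed without control replicate 2 or Wnt3a replicate 3, and *Tnc* and *Adamtsl1* without Wnt3a replicate 3, while the highest adjusted p was 0.125, 0.218 and 0.204. Of 54 tested collagens and matrix glycoproteins, 3 were lowered and none raised, and 17 were lower and 2 higher at an unadjusted p under 0.05, that is 31.5% and 3.7% beside 6.91% and 8.17% of all genes. Their median log2 fold change was −0.077, from −0.103 to −0.057 with any 1 library left out. The fibrillar collagen *Col1a2* was at −0.091 (limma adjusted p = 0.161) and *Fn1*, fibronectin, at −0.23 (limma adjusted p = 0.0961), while *Spp1*, osteopontin, was at 0.07 (limma adjusted p = 0.199). Matrix proteases, cross-linkers and inhibitors had 8 higher and 8 lower of 46 tested, with *Adamts1* at −0.38 (limma adjusted p = 0.0776) and a median of −0.020.

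Among adhesion genes, 2 were lowered, each by little. *Itga7*, a laminin-binding integrin chain, fell from 113, 112 and 112 FPKM to 102, 105 and 104 FPKM (log2 fold change −0.12, SE 0.024, limma adjusted p = 0.0499). *Actn1*, an actin cross-linker of focal adhesions, fell from 66.2, 64.3 and 65.6 FPKM to 59.1, 57.4 and 59.1 FPKM (log2 fold change −0.16, SE 0.030, limma adjusted p = 0.0429). Both passed without Wnt3a replicate 3 and in no other fit that left out a library (highest adjusted p 0.192 and 0.189). Of 31 tested integrins and focal adhesion genes 10 were lower and 1 higher at an unadjusted p under 0.05 (32.3% and 3.23%), and the median was −0.083, the lowest of the 17 lists in this fit but not with the length trend removed, where 6 lists were lower. The KEGG pathways of ECM-receptor interaction (41 tested, 3 lowered, 12 lower and 2 higher at an unadjusted p under 0.05) and focal adhesion (138 tested, 4 lowered, 26 lower and 6 higher) rest on the same called genes, *Itga7*, *Thbs1* and *Tnc*, with *Actn1* in the latter. None was raised in either pathway.

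*Lats2* (NCBI gene 305922), the kinase that inactivates YAP in the Hippo pathway, was at 52.0, 49.8 and 50.1 FPKM in control and at 44.5, 41.3 and 42.1 FPKM with Wnt3a, with no overlap. It fell by 0.25 on the log2 scale (SE 0.033, limma adjusted p = 0.00741), and its adjusted p reached 0.0478 at most when 1 library was left out. The list of YAP, SRF and cytoskeletal response genes had *Ccn1* and *Lats2* lowered of 37 tested, 15 lower and 1 higher at an unadjusted p under 0.05 (40.5% and 2.7%), and a median of −0.064. *Amotl2*, an angiomotin, was at −0.18 (limma adjusted p = 0.0776) and *Ccn2* at −0.27 (limma adjusted p = 0.089). The windows before the start sites of the lowered genes *Thbs1* (chr3:125510000-125510249, plus strand) and *Ccn1* (chr2:237225690-237225939, minus strand; both RefSeq, GRCr8) hold GGAATG, letters bound by the TEAD partners of YAP, in capitals on either strand.
Thbs1: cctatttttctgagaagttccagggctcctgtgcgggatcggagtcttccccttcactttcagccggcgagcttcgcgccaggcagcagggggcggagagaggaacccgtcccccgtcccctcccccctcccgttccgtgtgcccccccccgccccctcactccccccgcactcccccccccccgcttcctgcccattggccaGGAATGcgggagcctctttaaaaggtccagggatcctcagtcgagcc
Ccn1: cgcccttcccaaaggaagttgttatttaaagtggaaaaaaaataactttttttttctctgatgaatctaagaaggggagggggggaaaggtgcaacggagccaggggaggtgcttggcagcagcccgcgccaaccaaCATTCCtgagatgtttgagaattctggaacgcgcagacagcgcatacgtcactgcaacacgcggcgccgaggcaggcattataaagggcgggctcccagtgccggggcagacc
The match begins 47 bases before the start site in *Thbs1* and, on the opposite strand, 113 bases before it in *Ccn1*. It occurred in 11.6% of the 24206 promoters and in 9.99% of those of tested genes, in 3 of the 13 lowered genes with a promoter in the table, *Ankrd50* being the third, and in 1 of the 18 raised ones, *Bcas2*.

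**Figure D2:**
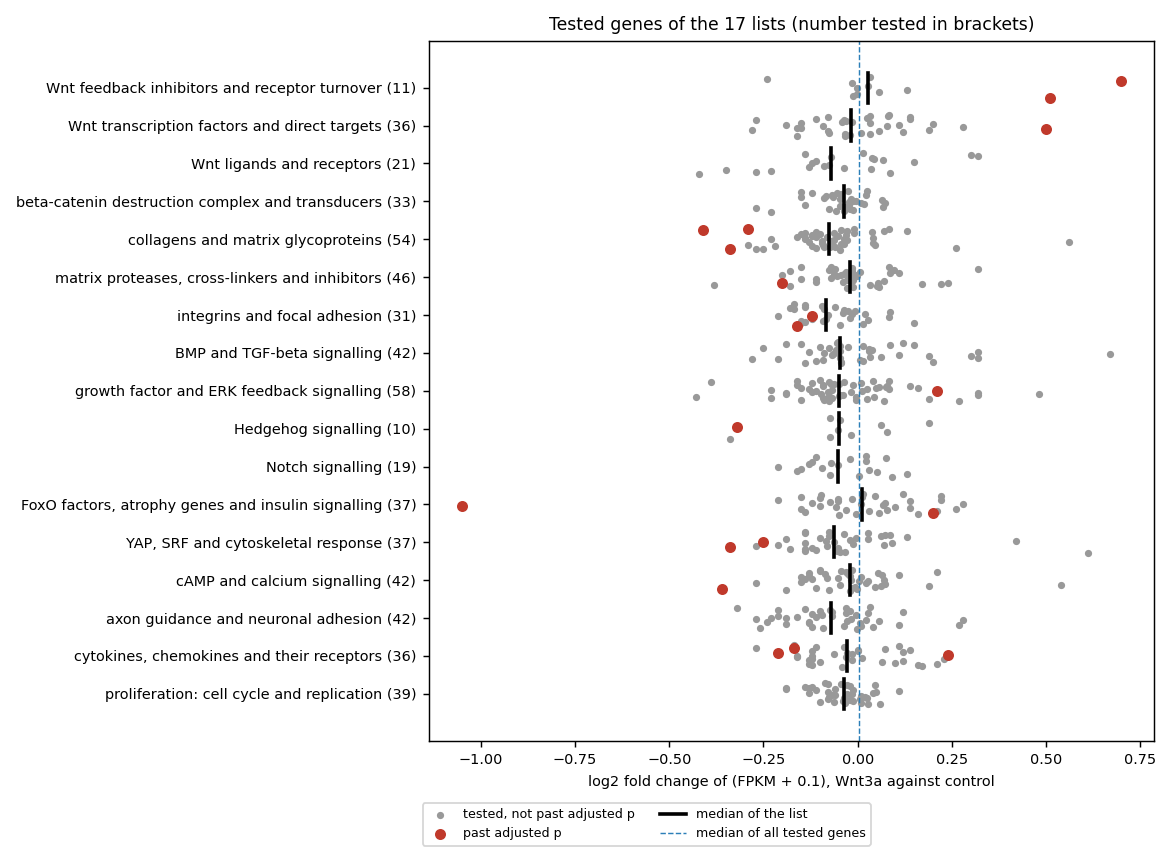
Log2 fold change of (FPKM + 0.1) with Wnt3a against control (x axis) for each tested gene of 17 lists (rows), with called genes in red, a black bar at the median of each list and a dashed line at the median of all tested genes, 0.004. Most medians lie a little below that line, the lowest at −0.083 for integrins and focal adhesion, and called genes are few in each row.

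Genes of other signaling pathways passed one by one. *Akap12* (NCBI gene 83425), a scaffold that anchors protein kinase A and protein kinase C, was at 83.1, 75.6 and 77.5 FPKM in control and at 60.9, 59.0 and 63.5 FPKM with Wnt3a. The groups did not overlap, and the level fell by 22.3% (log2 fold change −0.36, SE 0.047, limma adjusted p = 0.00714). It was the 1 called gene of 42 tested on the cAMP and calcium list, whose median was −0.019. *Gli3*, a transcription factor at the end of the Hedgehog pathway, fell from 16.7, 15.8 and 16.9 FPKM to 13.3, 11.9 and 14.4 FPKM (log2 fold change −0.32, SE 0.057, limma adjusted p = 0.0354). Its target and receptor *Ptch1* was at 0.19 (limma adjusted p = 0.246). *Il6st*, the signaling receptor chain shared by the interleukin-6 family, fell by 0.21, and *Stat3*, the factor that it activates, by 0.17 on the log2 scale (limma adjusted p = 0.0354 and 0.0473), whereas *Il33*, a cytokine stored in the nucleus, rose by 0.24 (limma adjusted p = 0.0429). *Sgk1*, a kinase of the PI3K pathway, fell by 0.16 (limma adjusted p = 0.0444), and *Ier3*, an early response gene, rose by 0.21 (limma adjusted p = 0.0297). The Hedgehog list had *Gli3* lowered of 10 tested, with a median of −0.049, and the cytokine list 1 raised and 2 lowered of 36, with 2 higher and 8 lower at an unadjusted p under 0.05 and a median of −0.029. *Akap12* passed whichever library was left out, *Il33* without control replicate 3 or Wnt3a replicate 3, and *Gli3*, *Il6st*, *Stat3*, *Sgk1* and *Ier3* without Wnt3a replicate 3.

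No gene passed among 42 tested in BMP and TGF-beta signalling, 19 in Notch signalling, 42 in axon guidance and neuronal adhesion and 39 in cell cycle and replication. The shares over all tested genes, 0.227% raised and 0.210% lowered, also give less than 1 call in lists of this size. *Id1*, a BMP target, had 10.3, 10.2 and 10.1 FPKM in control and 12.4, 12.8 and 12.5 FPKM with Wnt3a, with no overlap (log2 fold change 0.30, SE 0.068, limma adjusted p = 0.0791). *Nrp2*, a semaphorin co-receptor, had 100, 102 and 97.4 FPKM and 86.4, 85.2 and 92.2 FPKM (log2 fold change −0.19, limma adjusted p = 0.077). In axon guidance and neuronal adhesion, 11 genes were lower (26.2%) and none higher at an unadjusted p under 0.05, beside 6.91% and 8.17% of all tested genes. The median was −0.071, from −0.104 to −0.036 with 1 library left out. In the comparison with menthol present, given further on, 5 were higher and none lower, with a median of 0.048. With Wnt3a against control, 7 genes of cell cycle and replication were lower (17.9%) and none higher at the unadjusted level. *Mcm3*, a replicative helicase subunit, was at −0.19 (limma adjusted p = 0.146). The growth factor and ERK feedback list had *Ier3* raised of 58 tested, with 5 higher (8.62%) and 12 lower (20.7%) and *Tgfa* at −0.16 (limma adjusted p = 0.0721). The BMP and TGF-beta list had 6 higher (14.3%) and 8 lower (19%) with a median of −0.046. The Notch list had none higher and 4 lower (21.1%) with −0.051, *Rbpj*, the DNA-binding factor of Notch signaling, at −0.11 (limma adjusted p = 0.0826).

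In the pathway annotation of the table, the called genes were spread thinly. PI3K-Akt signaling had 4 lowered of 211 tested (*Itga7*, *Sgk1*, *Thbs1* and *Tnc*). Of its genes 18 were higher (8.53%) and 31 lower (14.7%) at an unadjusted p under 0.05, beside 8.17% and 6.91% of all tested genes. FoxO signaling had *Bnip3* raised and *Fbxo32*, *Sgk1* and *Stat3* lowered of 106, and Hippo signaling *Axin2* raised and *Lats2* lowered of 104. Pathways regulating pluripotency of stem cells had *Axin2* and *Isl1* raised and *Il6st* and *Stat3* lowered of 90. Cytokine-cytokine receptor interaction had *Il33* and *Tnfrsf19* raised and *Il6st* lowered of 89. Regulation of actin cytoskeleton had *Actn1* and *Itga7* lowered of 148, with 6 higher (4.05%) and 20 lower (13.5%) at that unadjusted level. TGF-beta signaling (59 tested) and p53 signaling (61) had *Thbs1* lowered, and Hedgehog (39) and cAMP signaling (92) *Gli3*. The medians of these 10 pathways lay between −0.045 for TGF-beta and −0.009 for cAMP, beside 0.004 over all tested genes. The KEGG pathways of MAPK (203 tested), Notch (43), calcium (84), axon guidance (118), cell adhesion molecules (64), neuroactive ligand-receptor interaction (40), cell cycle (118) and oxidative phosphorylation (124) held no called gene.

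The 2 called changes past 2-fold were in genes with few reads. *Fbxo32* (NCBI gene 171043), a ubiquitin ligase subunit of muscle atrophy that FoxO factors activate, was at 0.807, 0.873 and 0.934 FPKM in control and at 0.395, 0.386 and 0.324 FPKM with Wnt3a, on 13 to 38 reads per library. It fell by 1.05 on the log2 scale (SE 0.187, limma adjusted p = 0.0354). *LOC679519* (NCBI gene 679519), an uncharacterized locus, fell from 2.17, 1.23 and 1.61 FPKM to 0.647, 0.844 and 0.653 FPKM, on 8 to 27 reads (log2 fold change −1.09, SE 0.203, limma adjusted p = 0.0429). *Fbxo32* passed without Wnt3a replicate 3 and *LOC679519* without that library or control replicate 2, and in the other fits that left out a library their highest adjusted p was 0.125 and 0.168. The FoxO, atrophy and insulin list had 37 tested genes, with *Fbxo32* lowered and *Bnip3*, a mitophagy receptor, raised from 136, 135 and 135 FPKM to 159, 152 and 154 FPKM (log2 fold change 0.20, SE 0.027, limma adjusted p = 0.00875). *Bnip3* lost its call when control replicate 3 (0.0511) or Wnt3a replicate 1 (0.0635) was left out. At an unadjusted p under 0.05, 7 of this list were higher and 4 lower.

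The remaining called genes have varied roles. *Abcg1*, a cholesterol efflux transporter, rose from 1.12, 0.901 and 0.799 FPKM to 1.49, 1.56 and 1.94 FPKM, higher by 0.76 on the log2 scale (SE 0.147, limma adjusted p = 0.0453). It was the largest rise among the called genes. *Lipa*, the lysosomal acid lipase, rose by 0.24 (limma adjusted p = 0.0235), and was the 1 called gene of 17 tested in steroid biosynthesis, where 4 others were lower at an unadjusted p under 0.05. *Aldh3a1*, an aldehyde dehydrogenase, fell from 35.6, 33.2 and 31.0 FPKM to 24.7, 25.4 and 21.6 FPKM (log2 fold change −0.48, SE 0.082, limma adjusted p = 0.0354). Of the fits with a library left out, it passed only in the one without Wnt3a replicate 3 (highest adjusted p 0.125). *St3gal1*, a sialyltransferase, fell from 24.9, 25.2 and 26.2 FPKM to 21.2, 20.9 and 20.7 FPKM (log2 fold change −0.28, SE 0.038, limma adjusted p = 0.00806, and 0.0511 without control replicate 3). *Ppfibp2*, a liprin, rose by 0.55 with an adjusted p of 0.0499 that passed in no fit with a library left out. *Tm4sf1*, a tetraspanin-like membrane protein, rose by 0.35, the non-coding RNA *Crnde* by 0.31, *Mitd1*, which acts in cytokinesis, by 0.29, *Nt5c3a*, a nucleotidase, by 0.26, *Mtfmt*, which formylates mitochondrial initiator tRNA, by 0.24 and *LOC684871* by 0.45 (limma adjusted p from 0.0297 to 0.0493). *Zswim6* fell by 0.29, *Sh3rf3*, a ubiquitin ligase with SH3 domains, by 0.28 and *Ankrd50* by 0.20 (limma adjusted p = 0.0354, 0.0429 and 0.0493).

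Of the ribosomal protein genes, 3 were raised. *Rps14* rose from 720, 720 and 725 FPKM to 819, 812 and 778 FPKM (log2 fold change 0.15, SE 0.027, limma adjusted p = 0.0354). *Rps18* rose from 1158, 1189 and 1185 FPKM to 1294, 1345 and 1256 FPKM (log2 fold change 0.14, SE 0.028, limma adjusted p = 0.0475). *Rps18l1* rose by 0.24 (limma adjusted p = 0.0422), and since it is a near copy of *Rps18* the split of reads between them is uncertain. These 3 were the called genes of 159 tested in the KEGG ribosome pathway, where 83 were higher and 1 lower at an unadjusted p under 0.05 (52.2% and 0.629%) and the median log2 fold change was 0.105. Oxidative phosphorylation had 36 higher and none lower of 124 at that level, with a median of 0.074. These genes are short, with a median length of 719 bases for the ribosome and 927 bases for oxidative phosphorylation against 3153 bases for all tested genes, and gene length moved with the comparison.

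The median log2 fold change with Wnt3a was 0.062 in the shortest of 5 equal bins of tested genes, up to 1597 bases, then 0.024, 0.000 and −0.021, and −0.042 in the longest, from 5937 bases. Of the 26 raised genes 19 were shorter than the median of all genes, and of the 24 lowered 19 were longer. A library's deviation from the mean of all 12 changed with each doubling of gene length by 0.0109 to 0.0158 on the log2 scale in the control libraries, and by −0.0187, −0.0414 and 0.00553 in Wnt3a replicates 1, 2 and 3. Wnt3a replicate 3, whose omission gave the most calls, was thus closest to the controls in this measure. With the length trend of each library removed, 10 genes were raised and 9 lowered, all 19 among the 50. The ribosome median was then 0.027, with 18 of 159 genes higher and 6 lower at an unadjusted p under 0.05, and the median of oxidative phosphorylation 0.011. The matrix list, of median length 5432 bases, then had 15 lower and 1 higher with a median of −0.052, the integrin list 10 lower and 1 higher with −0.041, and the YAP and SRF list 12 lower and none higher with −0.058. *Axin2*, *Tnfrsf19*, *Klf5*, *Isl1*, *Thbs1*, *Akap12*, *Ccn1*, *Lats2* and *Fbxo32* were among those that still passed. *Rps14* had a log2 fold change of 0.057 in that fit and *Rps18* one of 0.050, where they had 0.15 and 0.14 before, and neither passed (limma adjusted p = 0.363 and 0.408). Other calls were lost with fold changes nearer to their first values. *Tnc* was at −0.25 and *Gli3* at −0.30 (limma adjusted p = 0.121 and 0.0546), *Itga7* at −0.11 and *Actn1* at −0.15 (0.0718 and 0.0691), and *Il6st* at −0.17 and *Stat3* at −0.15 (0.0718 and 0.064).

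**Figure D3:**
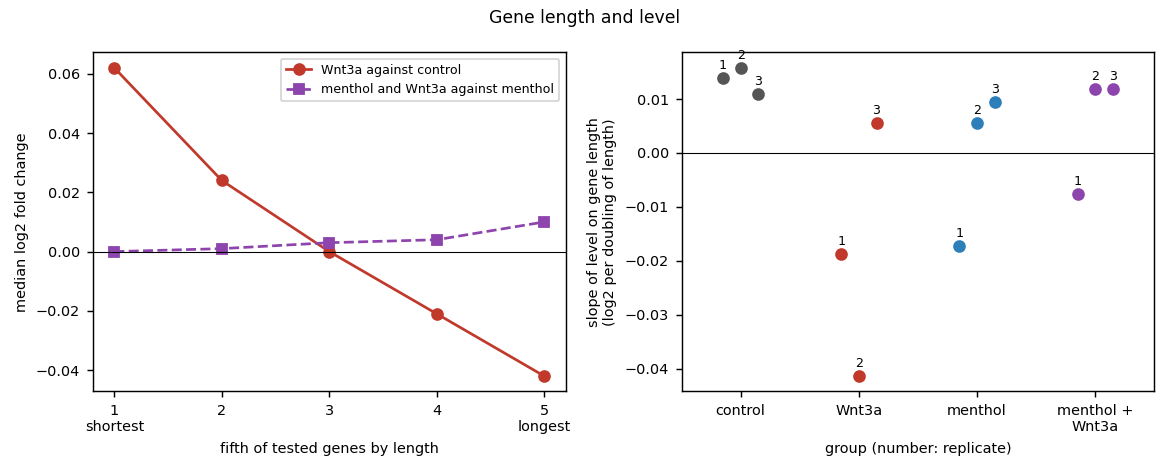
Left, median log2 fold change (y axis) in 5 equal bins of tested genes from shortest to longest (x axis) for Wnt3a against control and for menthol and Wnt3a against menthol; right, slope of the level on gene length in log2 per doubling (y axis) for each library by group. The Wnt3a medians fall from 0.062 to −0.042 while those with menthol present stay within 0.010 of 0. All 3 Wnt3a libraries lie below all 3 controls, replicate 3 by the least, and so do the 3 libraries with menthol alone.

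The 6 libraries with menthol gave a comparison of Wnt3a that shares no sample with the one above, menthol and Wnt3a against menthol alone. There 11 genes passed (0.0961% of those tested) and 769 had an unadjusted p under 0.05 (6.72%). Of the 50 called genes 48 had the same sign in it, 25 of 26 raised and 23 of 24 lowered, beside 56.4% of all tested genes, and 34 of them had an unadjusted p under 0.05. The 50 were chosen for their size in the first comparison, so smaller sizes in a second are expected whatever menthol does. Among the 48, 43 were smaller, and the median of the 50 along their own direction was 0.10 on the log2 scale. *Axin2*, *Isl1*, *Klf5*, *Irx3*, *Tmem158*, *Thbs1* and *Akap12* passed in both. *Axin2* was at 4.55, 5.19 and 5.28 FPKM with menthol and at 7.83, 8.71 and 8.37 FPKM with menthol and Wnt3a, a log2 fold change of 0.72 (limma adjusted p = 0.000645). *Klf5* went from 9.29, 9.52 and 8.65 FPKM to 12.8, 12.4 and 13.1 FPKM, or 0.48 (limma adjusted p = 0.000645), *Isl1* rose by 0.59 (limma adjusted p = 0.00531) and *Irx3* by 0.32 (limma adjusted p = 0.0109). *Thbs1* fell by 0.25 (limma adjusted p = 0.0199), from 711, 700 and 689 FPKM to 588, 613 and 569 FPKM, and *Akap12* by 0.29 (limma adjusted p = 0.0395).

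The matrix, integrin, ribosome and YAP groups had medians nearer to 0 with menthol present. Of the matrix list 3 genes were lower and 2 higher at an unadjusted p under 0.05 with menthol present, with a median of 0.006, and of the integrin list 2 lower and 1 higher, with the same median. The ribosome pathway had 7 higher and 7 lower with a median of 0.005. The YAP and SRF list had 7 lower and none higher with a median of −0.024. The cell cycle and replication list went the other way, from −0.036 to −0.066 with 11 lower and 1 higher, and the cytokine list was at −0.031 with 9 lower and 1 higher. Other lists turned sign, among them axon guidance and neuronal adhesion, from −0.071 to 0.048 with 5 higher and none lower. Wnt ligands and receptors went from −0.071 to 0.091, with 2 higher and 1 lower. The Wnt feedback list was at 0.061, with 4 higher and none lower. The difference between the groups of genes was not tested. For single genes it was tested as the interaction, which no gene passed in the main fit (limma), with 800 genes at an unadjusted p under 0.05. The 50 count 21 of these, a number that their choice on 1 of the 2 comparisons raises. *Fbxo32* had the lowest interaction p of the 50, 8.35e-06 unadjusted and 0.0956 adjusted. Its level was 0.422, 0.373 and 0.37 FPKM with menthol and 0.525, 0.905 and 0.824 FPKM with both, so that it was lower with Wnt3a alone and higher with Wnt3a when menthol was present (log2 fold change 0.77, limma adjusted p = 0.278). *Nt5c3a* was the other gene of opposite sign, at −0.039.

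**Figure D4:**
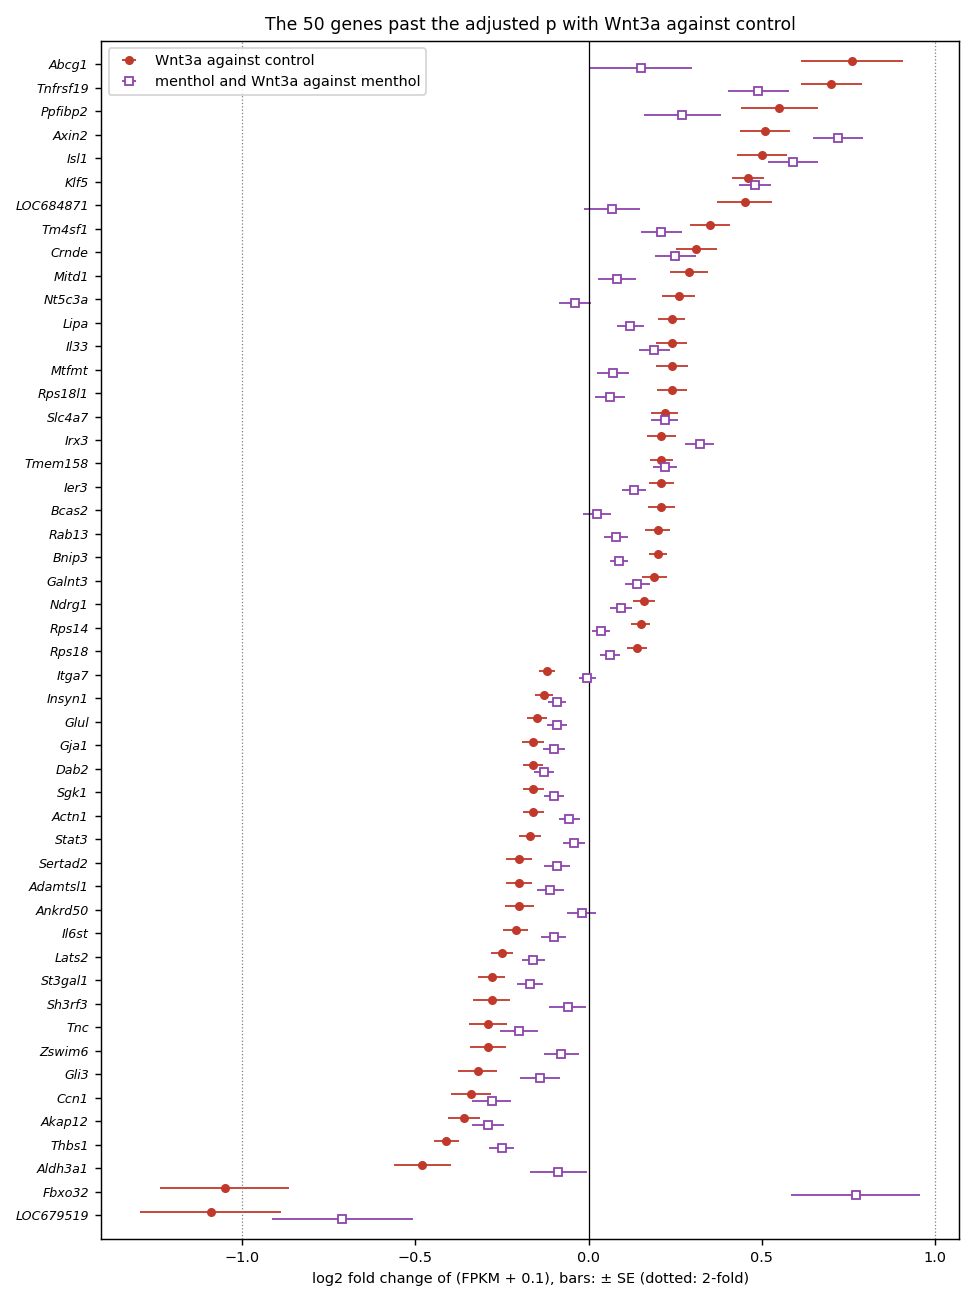
Log2 fold change of (FPKM + 0.1) (x axis, bars ± SE) of the 50 called genes (rows) with Wnt3a against control (filled circles) and with menthol and Wnt3a against menthol (open squares), with dotted lines at 2-fold. For 48 genes both lie on the same side of 0. That the square is nearer to 0 for 43 of them is expected of genes chosen on the circles.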

How the data were processed

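RNA of ND7/23 cells was sequenced by the study with paired-end reads. According to the submitters' processing notes and the methods, reads were cleaned with fastp, aligned with HISAT to the rat genome (mRatBN7.2 is named) and counted per gene with HTSeq. The values are FPKM as deposited by the authors, and the strand setting and the treatment of mouse reads from this rat and mouse hybrid are not given in the sources used here. Columns of annotation gave KEGG pathway names.

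From these values, log2(FPKM + 0.1) was fitted with limma 3.58.1 in R 4.3.3 for 11451 genes with a mean of at least 0.5 FPKM, all 12 libraries sharing 1 estimate of the spread with a trend in the mean, and p-values were adjusted by Benjamini-Hochberg over all tested genes. The added 0.1 makes fold changes of genes with low levels too small. Called genes are those with an adjusted p under 0.05, whatever their fold change. Dividing each gene's FPKM by its smallest step gave whole reads for 100.0% of 21556 genes (tolerance 1e-06 relative to the count), 1804 of which were above 0 in 1 library and so have a minimum count. The step was searched for so as to make every value of a gene whole. These reads and the gene lengths they give were used for depth, limma voom on library totals and the length fits. Scripts were tested on simulated data.

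Genes were named by a rule: the 15 largest called changes in each direction, every called gene on a list or in a pathway, those past 2-fold, and list members of lowest p or highest level. Any other gene named was chosen after its values were seen. The members, the 17 gene lists, the 23 pathways and the motifs were chosen with earlier results of these data known. Alternatives were other pseudocounts, minimums, centring, 6 libraries alone, the replicate block, a fit without the trend, voom, each library left out and, added after the data were seen, removal of each library's length trend.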

Additional observations from a re-analysis of the deposited data

Results flagged for a closer look

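*Fbxo32* stood out because its 3 Wnt3a libraries all lay below the 3 controls (log2 fold change −1.05) while the 3 libraries with menthol and Wnt3a all lay above the 3 with menthol (log2 fold change 0.77). The test of this difference, the interaction in limma, gave an adjusted p of 0.0956, and 0.0482 with the length trend of each library removed. In that second fit 2 genes passed the interaction, *Fbxo32* and *Pelo*. The levels of *Fbxo32* rest on 13 to 38 reads per control or Wnt3a library.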

How the results depend on the processing

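The counts of raised, lowered and more than 2-fold changed genes were 26, 24 and 2. They were 4, 5 and 0 with no FPKM minimum (1211 higher and 1054 lower at an unadjusted p under 0.05), 10, 7 and 0 with the 6 libraries of control and Wnt3a alone, 1, 1 and 0 without the trend of the variance, and 118, 185 and 1 by limma voom on the recovered reads (38.9% of calls raised, against 52%). With the length trend removed they were 10, 9 and 2. Leaving out 1 library gave 3 to 158 raised, 3 to 133 lowered and 0 to 3 past 2-fold. The 2-fold count was 0 with a pseudocount of 1, 1 with a mean FPKM of at least 1 and 4 with a threshold of 1.5-fold. With the replicate number as a block it was 1, beside 24 raised and 26 lowered genes, of which 38 were among the 50. Same-numbered control and Wnt3a libraries deviated from their group means with correlations of 0.019, 0.032 and 0.002 over all tested genes. With the block 1028 genes were higher and 871 lower at an unadjusted p under 0.05, against 936 and 791 without it. Whether the numbers pair the libraries is not settled by these values, and no label says so. Of 799 values of the 50 genes under the alternatives, 403 passed the adjusted p and 396 did not. All 799 kept their sign. This says little, since the groups do not overlap for any of the 50 and the alternatives refit the values that chose them. The cause of these shifts was not tested. Genes under the minimum, most of the Wnt feedback list among them, were tested in the fit with no FPKM minimum alone.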

Other observations

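*Snap25*, of the synaptic vesicle fusion machinery, and *Gap43*, a growth cone protein, lay under the FPKM minimum and are given as read counts. *Snap25* had 12, 27 and 19 reads in control and 31, 51 and 47 with Wnt3a, and *Gap43* had 0, 1 and 1 reads and 4, 7 and 8. Both were chosen after their values were seen, from a set without a common direction: of the 6 tested neuronal markers 3 were higher and 3 lower, with a median log2 fold change of −0.031. On the axon guidance and neuronal adhesion list 11 were lower and none higher at an unadjusted p under 0.05, whereas with menthol present 5 were higher and none lower. *Mb*, myoglobin, had 20, 12 and 3 reads in control and 65, 28 and 13 with Wnt3a, and the groups overlapped (log2 fold change 1.31, limma adjusted p = 0.39).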
